A study of Mus musculus with 6 samples.

Results

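The 52 genes described here act in G2 phase and mitosis, and they were fixed by symbol, from the cyclins that open mitosis to the proteins that close cytokinesis. All 52 symbols were found in the deposited table, among 14515 genes in all. The table holds 6 RNA libraries of mouse muscle stem cells, 2 labelled mdx/Ripk3mKO, 2 labelled mdx and 2 labelled wt. Mice called mdx carry a mutation in dystrophin and model Duchenne muscular dystrophy. The mdx/Ripk3mKO label adds a loss of Ripk3, a kinase needed for the inflammatory cell death called necroptosis, and what the letter m stands for is not spelled out. The sources give 2 accounts of the cells. By the sample labels they were quiescent satellite cells, purified by sorting and used without culture at 10000 to 20000 cells per library. By the series text they were activated wild-type cells, taken after 72 hours below a transwell insert with mdx/Ripk3mKO, mdx or wt cells in it, so that the genotype would be that of the neighbouring cells. The groups are therefore called by their labels. No label ties the 2 libraries of a group to different animals or cultures. The p-values below therefore reflect library-to-library spread alone, which may be technical. In bulk RNA, fewer dividing cells and less of each transcript per dividing cell cannot be told apart.

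Entry into mitosis is driven by the kinase Cdk1 bound to cyclin A or cyclin B, and exit by the anaphase-promoting complex (APC/C), a ubiquitin ligase that marks cyclin B and securin for destruction. Most genes of this programme are transcribed together late in the cycle and are silent in resting cells. Satellite cells, the stem cells of muscle, rest outside the cycle in intact muscle and enter it after injury. Transcripts of these genes are in common use as markers of dividing cells.

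The values in the table are read counts that had been scaled between libraries and rounded, and are called scaled counts here. Totals ran from 20611974 to 21037153 per library. Ripk3 itself was low and did not separate the labels, at 17 and 33 scaled counts in mdx/Ripk3mKO libraries, 23 and 36 in mdx libraries, and 45 and 32 in wt libraries. A whole-gene value can miss a partial deletion, and by the series text the RNA came from wild-type cells. Neither was tested. Dmd, the dystrophin gene, was not lower in mdx than in wt libraries, at 531 and 692 against 324 and 432 scaled counts. It had 474 and 294 in mdx/Ripk3mKO libraries. One library stood apart in sex-linked transcripts. Xist, which silences an X chromosome in females, had 6918 scaled counts in mdx/Ripk3mKO library 1 and 471 in library 2, against 369 to 666 in mdx libraries and 164 and 420 in wt libraries. Transcripts of the Y chromosome were lower in the same library and far from 0, with Ddx3y at 373 scaled counts against 1543 to 1785 in the other 5 libraries, Eif2s3y at 374 against 1377 to 1551 and Kdm5d at 216 against 850 to 921. Values without this library are given below, after the comparison of libraries within groups. Markers of blood cells were scarce, with 0 of 5 lymphocyte and 0 of 4 erythroid markers listed in the table, and macrophage markers at 1.33 to 2.03 CPM in sum (CPM being scaled counts relative to the library total). The satellite cell factor Pax7 lay between 84.6 and 103 CPM. Markers of differentiating muscle cells summed to 12760 to 16350 CPM. Those of pericytes and smooth muscle summed to 1826 to 2557 CPM, with Acta2 alone at 1745 to 2472 and Rgs5 at 0.53 to 1.31.

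All 52 genes were well expressed in all 6 libraries, which goes against the label of quiescent cells. Per kilobase of exon, a scale on which levels of different genes can be compared, their means over the 6 libraries ran from 84.7 to 1527 scaled counts with a median of 432. The median of 12378 tested protein-coding genes was 119, and 51 of the 52 lay above it. Highest were Mki67, the gene of the proliferation marker Ki-67, at 1527 scaled counts per kilobase, and Smc4, an ATPase subunit of condensin, at 1526. Next came Top2a, which untangles sister chromatids, at 1461, Ccna2 (cyclin A2) at 1373 and the APC/C activator Cdc20 at 1263. Lowest were the phosphatase Cdc25c at 84.7, the kinetochore protein Ndc80 at 125, securin (Pttg1) at 129, separase (Espl1) at 142 and the checkpoint kinase Ttk at 170. The range over genes was far wider than the spread between libraries of any of them, as the plot of levels by gene shows. For single genes the highest library exceeded the lowest by a ratio of 1.03 (Nuf2) to 1.24 (Aurka). Summed over the 52 genes, the level was 6959 and 7689 CPM in mdx/Ripk3mKO libraries, 7271 and 7728 in mdx libraries, and 7503 and 7545 in wt libraries. The mdx/Ripk3mKO libraries thus held both the lowest sum and one close to the highest, and the 3 groups overlapped.

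**Figure D1:**
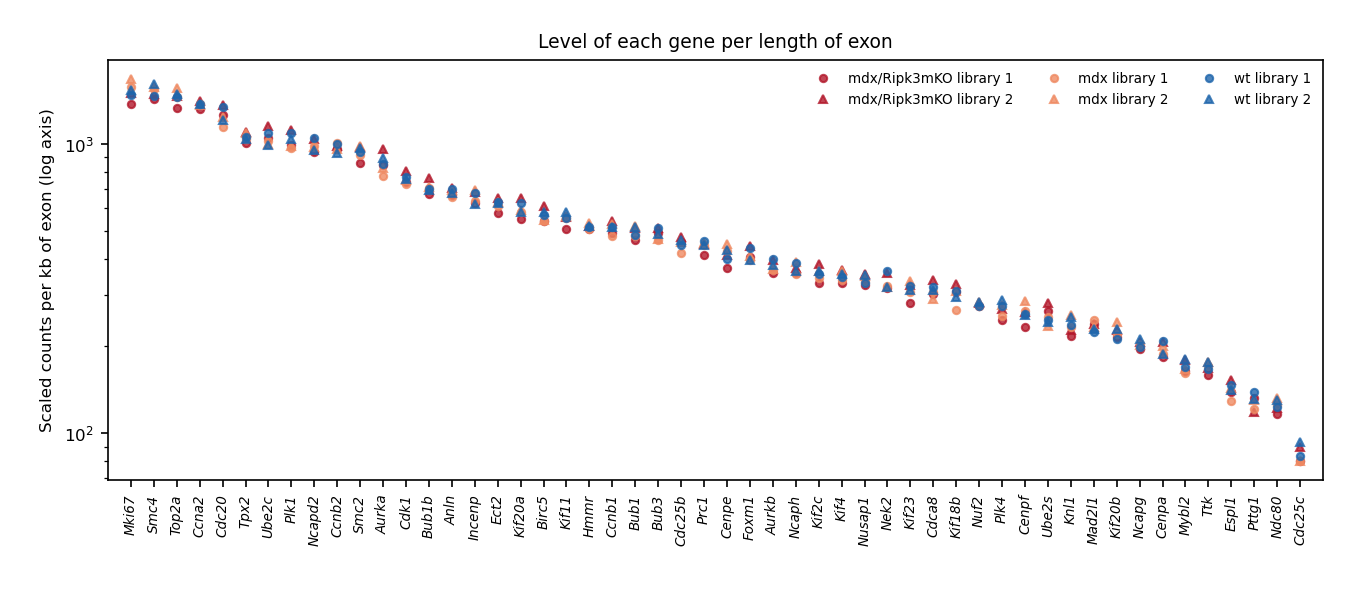
Level of each of the 52 genes in scaled counts per kilobase of merged exon (log axis), sorted by the mean, with 1 point for each library coloured by group. The genes span 84.7 to 1527 in the mean, while the 6 points of a gene lie within a ratio of 1.24 of each other.

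No gene of the 52 passed the test between the labelled groups after adjustment over all 14077 genes tested by limma. Between mdx/Ripk3mKO and mdx libraries 0 of 52 were called, where 0.206% of all genes were (29 genes). At an unadjusted p under 0.05 there were 5 of 52, where the share of all genes was 11.6%. These were Aurka and Ube2s with higher values in mdx/Ripk3mKO (5.77% of all genes) and Mki67, Cenpe and Cenpf with lower values (5.87%). For 14 genes both libraries of one group lay beyond both of the other, beside 41.3% of all genes, with 7 higher (21.0% of all genes) and 7 lower (20.3%) in mdx/Ripk3mKO. The log2 fold change of mdx/Ripk3mKO over mdx ran from -0.18 to 0.17 with a median of -0.0042, beside -0.0021 over all genes, with 24 values above 0 (49.2% of all genes) and 28 below (50.8%). The smallest adjusted p was 0.209, for Mki67.

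Between mdx and wt libraries again 0 of 52 were called by limma (0.0071% of all genes, which is 1 gene), and 0 of 52 had an unadjusted p under 0.05 (6.46% of all genes, 3.44% higher and 3.02% lower). The groups were apart for 14 genes, beside 35.9% of all genes, with 4 higher (17.6%) and 10 lower (18.3%) in mdx. Log2 fold changes of mdx over wt ran from -0.14 to 0.11 with a median of -0.016, beside -0.0022 over all genes. Of the 52, 16 lay above 0 (49.0% of all genes) and 36 below (50.9%), and the smallest adjusted p was 0.781. Between mdx/Ripk3mKO and wt libraries 0 of 52 were called (0.0% of all genes), and 2 of 52 had an unadjusted p under 0.05 (3.32% of all genes), Ube2s with a higher value (1.24% of all genes) and Knl1 with a lower one (2.09%). Separation of the libraries was found for 5 genes, beside 29.4% of all genes, with 2 higher (14.4% of all genes) and 3 lower (15.1%). These log2 fold changes ran from -0.14 to 0.15 with a median of -0.012, beside 0.0012 over all genes. There were 18 values above 0 (50.5% of all genes) and 34 below (49.4%), and every adjusted p was 1. An F-test over the 3 groups called 0 of 52 as well (0.0781% of all genes), with 2 of 52 at an unadjusted p under 0.05 (7.87% of all genes) and a smallest adjusted p of 0.494. The comparisons share libraries, so they are not independent of each other.

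The 95% confidence interval of a log2 fold change, not adjusted for the number of genes, reached 0.11 to 0.233 to either side. All 52 intervals lay within a 1.5-fold change in each comparison. Pttg1 and Cdc25c, among the lowest in level, had the widest intervals. The plot of differences gene by gene shows the intervals, most of which cross 0.

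**Figure D2:**
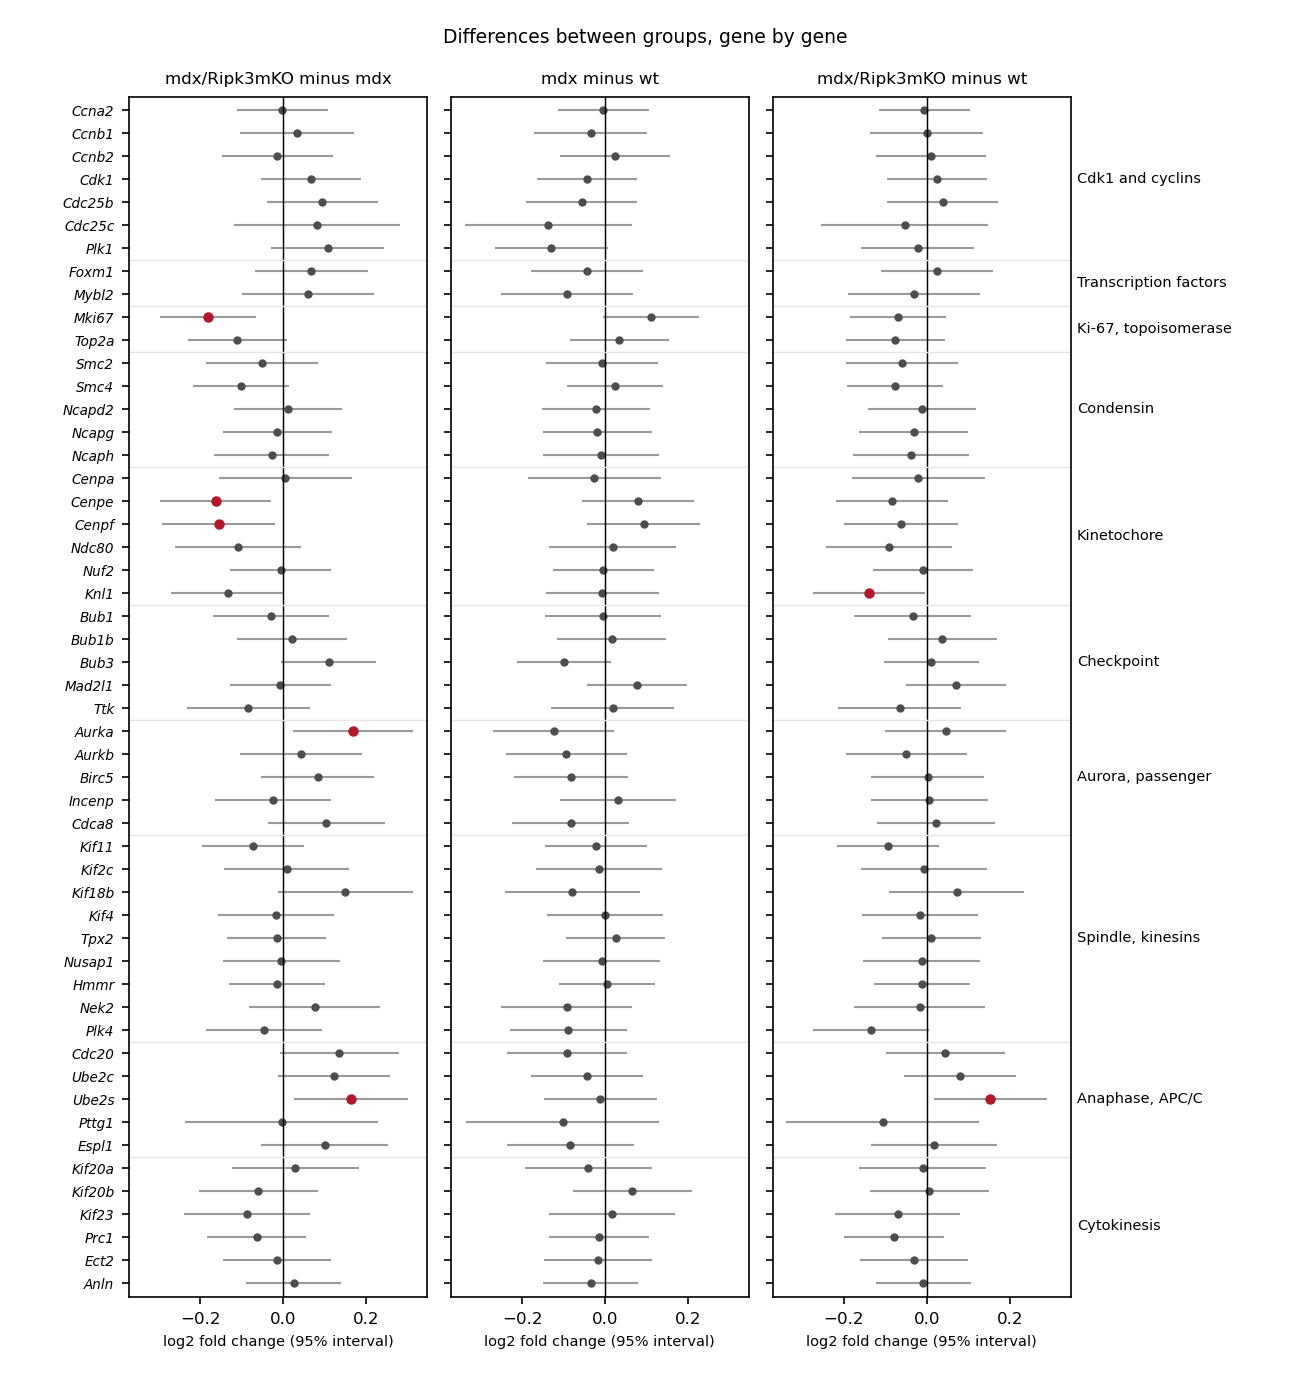
Log2 fold change of each of the 52 genes (points) with its 95% interval (lines) in mdx/Ripk3mKO against mdx, mdx against wt and mdx/Ripk3mKO against wt, ordered by role. Red points have an unadjusted p under 0.05 by limma (5, 0 and 2 genes), and none passed after adjustment over all genes.

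The kinase switch that opens mitosis comprised 7 of the genes. Cdk1 (ENSMUSG00000019942, mm10 chromosome 10, 69335146 to 69352938) had 3666 and 3994 scaled counts in mdx/Ripk3mKO libraries, 3586 and 3717 in mdx libraries, and 3794 and 3734 in wt libraries. Its partner Ccna2 had 5411 and 5781 in mdx/Ripk3mKO, 5612 and 5592 in mdx, and 5626 and 5610 in wt. Ccnb1 (cyclin B1) had 2087 and 2281 in mdx/Ripk3mKO, 2036 and 2232 in mdx, and 2188 and 2178 in wt. The groups of Ccna2 and Ccnb1 overlapped in each comparison, and for Cdk1 both mdx libraries lay just below both wt libraries. Plk1, a kinase that activates Cdk1 and later acts on centrosomes and spindle, had 2178 and 2457 in mdx/Ripk3mKO, 2132 and 2164 in mdx, and 2411 and 2289 in wt. It was lowest in both mdx libraries, with a log2 fold change of 0.11 ± 0.064 for mdx/Ripk3mKO over mdx (limma, adjusted p = 0.551) and -0.13 ± 0.064 for mdx over wt (adjusted p = 0.788). Cdc25c, which removes the inhibitory phosphates from Cdk1, had 396 and 443 in mdx/Ripk3mKO, 396 and 395 in mdx, and 411 and 460 in wt. It stood at -0.14 ± 0.094 for mdx over wt (adjusted p = 0.845) and at -0.054 ± 0.094 for mdx/Ripk3mKO over wt (adjusted p = 1). The related phosphatase Cdc25b ranged from 1566 to 1783 and Ccnb2 (cyclin B2) from 1429 to 1542 over the 6 libraries. Of the 7 genes, 5 had a higher mean in mdx/Ripk3mKO than in mdx (49.2% of all genes). A lower mean in mdx than in wt was found for 6 (50.9% of all genes).

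Both transcription factors of the programme were in the table. Foxm1, which activates late cell cycle genes, had 2338 and 2557 scaled counts in mdx/Ripk3mKO libraries, 2296 and 2370 in mdx libraries, and 2516 and 2297 in wt libraries. Mybl2, the B-Myb subunit that recruits it to promoters, had 759 and 833 in mdx/Ripk3mKO, 751 and 774 in mdx, and 785 and 840 in wt. The groups of Foxm1 overlapped in each comparison, and the mdx and wt libraries of Mybl2 did not. Foxm1 had a log2 fold change of 0.068 ± 0.064 for mdx/Ripk3mKO over mdx (limma, adjusted p = 0.735), and Mybl2 stood at -0.091 ± 0.074 for mdx over wt (adjusted p = 0.871) and at -0.030 ± 0.074 for mdx/Ripk3mKO over wt (adjusted p = 1).

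Mki67 (ENSMUSG00000031004, mm10 chromosome 7, 135689784 to 135716361) had 13883 and 15067 scaled counts in mdx/Ripk3mKO libraries, 15928 and 16904 in mdx libraries, and 14852 and 15531 in wt libraries. The mdx libraries were the highest of the 6, and they did not overlap with either other group. The log2 fold change was -0.18 ± 0.054 for mdx/Ripk3mKO over mdx (limma, adjusted p = 0.209), the lowest of the 52 genes, and 0.11 ± 0.054 for mdx over wt (adjusted p = 0.781). Ki-67 coats chromosomes in mitosis and keeps them apart. Top2a (ENSMUSG00000020914, mm10 chromosome 11, 98992943 to 99024189) had 11989 and 13234 in mdx/Ripk3mKO, 13169 and 14052 in mdx, and 13119 and 13447 in wt. Its groups overlapped, at -0.11 ± 0.056 for mdx/Ripk3mKO over mdx (adjusted p = 0.471) and -0.076 ± 0.056 for mdx/Ripk3mKO over wt (adjusted p = 1).

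Condensin compacts chromosomes before they separate, and 5 of its genes were measured. Smc4 had 7482 and 7764 scaled counts in mdx/Ripk3mKO libraries, 8119 and 8233 in mdx libraries, and 7675 and 8415 in wt libraries. It was lower in both mdx/Ripk3mKO libraries than in both mdx libraries, at -0.10 ± 0.054 (limma, adjusted p = 0.497), and stood at 0.025 ± 0.054 for mdx over wt (adjusted p = 0.969) and -0.076 ± 0.054 for mdx/Ripk3mKO over wt (adjusted p = 1). Its ATPase partner Smc2 ranged from 4717 to 5390 over the 6 libraries. Ncapd2 ranged from 5901 to 6565, Ncapg from 1381 to 1492 and Ncaph from 1534 to 1689, and these are the regulatory subunits of the complex. All 5 had a lower mean in mdx/Ripk3mKO than in wt (49.4% of all genes). Their log2 fold changes were -0.076 to -0.012, with every adjusted p by limma at 1.

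Kinetochores join chromosomes to spindle microtubules. Of the 6 kinetochore and centromere genes, 5 had a lower mean in mdx/Ripk3mKO than in mdx (50.8% of all genes). The median log2 fold change of the 6 was -0.12. All 6 were also lower in mdx/Ripk3mKO library 1 than in library 2, with a median difference of -0.11 on the log2 scale. Cenpe (ENSMUSG00000045328, mm10 chromosome 3, 135212537 to 135273611), a kinesin that carries chromosomes to the spindle equator, had 3214 and 3572 scaled counts in mdx/Ripk3mKO libraries, 3687 and 3902 in mdx libraries, and 3463 and 3723 in wt libraries. Cenpf, a large protein of the outer kinetochore, had 3593 and 4059 in mdx/Ripk3mKO, 4077 and 4438 in mdx, and 4002 and 3972 in wt. Knl1, the scaffold for checkpoint proteins, had 1862 and 1939 in mdx/Ripk3mKO, 1988 and 2185 in mdx, and 2023 and 2166 in wt. For all 3 genes both mdx/Ripk3mKO libraries lay below both mdx libraries, narrowly for Cenpf and Knl1. The log2 fold changes for mdx/Ripk3mKO over mdx were -0.16 ± 0.063 for Cenpe (limma, adjusted p = 0.34), -0.16 ± 0.064 for Cenpf (adjusted p = 0.369) and -0.13 ± 0.064 for Knl1 (adjusted p = 0.441). In mdx over wt they were 0.079 ± 0.063 for Cenpe (adjusted p = 0.866) and 0.093 ± 0.064 for Cenpf (adjusted p = 0.845). Knl1 stood at -0.14 ± 0.064 in mdx/Ripk3mKO over wt (adjusted p = 1). The microtubule-binding proteins Ndc80 and Nuf2 ranged from 755 to 860 and from 1747 to 1800 over the 6 libraries. Cenpa, the histone variant that marks the centromere, ranged from 1080 to 1220.

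The spindle checkpoint holds back anaphase until every chromosome is attached. Bub1b, which encodes the APC/C inhibitor BubR1, had 2884 and 3270 scaled counts in mdx/Ripk3mKO libraries, 3015 and 3037 in mdx libraries, and 3005 and 2981 in wt libraries. Its 2 mdx/Ripk3mKO libraries were the lowest and the highest of the 6. Its partner Bub3 had 3469 and 3604 in mdx/Ripk3mKO, 3260 and 3294 in mdx, and 3598 and 3424 in wt. Bub3 was lowest in the mdx libraries, at 0.11 ± 0.053 for mdx/Ripk3mKO over mdx (limma, adjusted p = 0.451) and -0.099 ± 0.053 for mdx over wt (adjusted p = 0.81). Mad2l1, which binds Cdc20, had 2000 and 2006 in mdx/Ripk3mKO, 2068 and 1959 in mdx, and 1887 and 1928 in wt. Its wt libraries were the lowest of the 6, at 0.078 ± 0.057 for mdx over wt (adjusted p = 0.85) and 0.071 ± 0.057 for mdx/Ripk3mKO over wt (adjusted p = 1). The kinases Bub1 and Ttk ranged from 2035 to 2265 and from 786 to 868 over the 6 libraries.

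Aurora kinase A matures centrosomes, and Aurora kinase B corrects faulty attachments as part of the chromosomal passenger complex. Aurka (ENSMUSG00000027496, mm10 chromosome 2, 172356190 to 172370535) had 2141 and 2445 scaled counts in mdx/Ripk3mKO libraries, 1971 and 2101 in mdx libraries, and 2166 and 2270 in wt libraries. Both mdx libraries lay below the other 4. The log2 fold change was 0.17 ± 0.068 for mdx/Ripk3mKO over mdx (limma, adjusted p = 0.355), the highest of the 52 genes, and -0.12 ± 0.068 for mdx over wt (adjusted p = 0.81). For mdx/Ripk3mKO over wt it was 0.045 ± 0.068 (adjusted p = 1). Aurkb had 1060 and 1176 in mdx/Ripk3mKO, 1078 and 1089 in mdx, and 1183 and 1129 in wt. It stood at -0.050 ± 0.068 for mdx/Ripk3mKO over wt (adjusted p = 1), with groups that overlapped. The other passenger proteins were Birc5 (survivin), which ranged from 1841 to 2081 over the 6 libraries, Incenp, from 2694 to 2999, and Cdca8 (borealin), from 1504 to 1761.

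Motors and regulators of the spindle and centrosome made up 9 genes. Kif18b, a kinesin that shortens astral microtubules, had 1105 and 1176 scaled counts in mdx/Ripk3mKO libraries, 953 and 1107 in mdx libraries, and 1111 and 1059 in wt libraries. The mdx/Ripk3mKO and mdx libraries overlapped, at 1105 and 1107, and the log2 fold change was 0.15 ± 0.077 (limma, adjusted p = 0.476). Against wt it was 0.072 ± 0.077 (adjusted p = 1). Plk4, which starts centriole duplication, had 1688 and 1841 in mdx/Ripk3mKO, 1742 and 1902 in mdx, and 1887 and 1985 in wt. Both mdx/Ripk3mKO libraries of Plk4 lay below both wt libraries, at -0.13 ± 0.066 (adjusted p = 1). Kif11, the motor that pushes spindle poles apart, had 3798 and 4180 in mdx/Ripk3mKO, 4158 and 4226 in mdx, and 4154 and 4356 in wt, at -0.094 ± 0.058 for mdx/Ripk3mKO over wt (adjusted p = 1). Nek2, which splits centrosomes, had 1439 and 1622 in mdx/Ripk3mKO, 1455 and 1444 in mdx, and 1645 and 1452 in wt, at -0.092 ± 0.074 for mdx over wt (adjusted p = 0.867). The groups of Kif11 and Nek2 overlapped in these comparisons. Tpx2, which activates Aurora A on the spindle, ranged from 4732 to 5175 over the 6 libraries, and the microtubule depolymerase Kif2c from 1449 to 1678. Hmmr ranged from 2756 to 2897, Nusap1 from 1322 to 1441 and the chromosome-arm kinesin Kif4, an X-linked gene, from 1820 to 2025.

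Anaphase starts when Cdc20 switches on the APC/C, Ube2c and Ube2s supply and extend ubiquitin chains, and loss of securin frees separase to cut cohesin. Of these 5 genes, 4 had a higher mean in mdx/Ripk3mKO than in mdx (49.2% of all genes). The median log2 fold change of the 5 was 0.12. All 5 had a lower mean in mdx than in wt (50.9% of all genes). Cdc20 had 2352 and 2561 scaled counts in mdx/Ripk3mKO libraries, 2150 and 2321 in mdx libraries, and 2504 and 2263 in wt libraries. It stood at 0.14 ± 0.067 for mdx/Ripk3mKO over mdx (limma, adjusted p = 0.46) and -0.092 ± 0.067 for mdx over wt (adjusted p = 0.85). Ube2s (ENSMUSG00000060860, mm10 chromosome 7, 4808014 to 4812590) had 1358 and 1451 in mdx/Ripk3mKO, 1294 and 1212 in mdx, and 1271 and 1253 in wt. Both mdx/Ripk3mKO libraries exceeded the other 4, at 0.16 ± 0.064 over mdx (adjusted p = 0.343) and 0.15 ± 0.064 over wt (adjusted p = 1). Ube2c had 2729 and 3000 in mdx/Ripk3mKO, 2659 and 2595 in mdx, and 2834 and 2584 in wt. Its mdx/Ripk3mKO libraries exceeded both mdx libraries and overlapped with wt, at 0.080 ± 0.063 over wt (adjusted p = 1). Securin (Pttg1) ranged from 238 to 278 over the 6 libraries, at -0.10 ± 0.11 for mdx over wt (adjusted p = 0.906), and separase (Espl1) from 1130 to 1338.

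The last step, cytokinesis, is organised at the spindle midzone. Prc1, which bundles midzone microtubules, had 3399 and 3710 scaled counts in mdx/Ripk3mKO libraries, 3681 and 3745 in mdx libraries, and 3810 and 3696 in wt libraries, at -0.080 ± 0.056 for mdx/Ripk3mKO over wt (limma, adjusted p = 1). Kif23, a motor of the centralspindlin complex, had 2235 and 2576 in mdx/Ripk3mKO, 2436 and 2667 in mdx, and 2560 and 2479 in wt, at -0.087 ± 0.070 for mdx/Ripk3mKO over mdx (adjusted p = 0.688). Kif20b had 1503 and 1580 in mdx/Ripk3mKO, 1530 and 1687 in mdx, and 1479 and 1592 in wt, at 0.066 ± 0.067 for mdx over wt (adjusted p = 0.899). All 3 genes overlapped between the groups compared. Kif20a, another midzone kinesin, ranged from 2401 to 2823, Ect2, which activates RhoA at the cleavage furrow, from 3120 to 3517, and the furrow scaffold Anln from 5931 to 6392 over the 6 libraries.

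The difference between mdx/Ripk3mKO and mdx ran along the length and base composition of the genes. Over the 52 genes the log2 fold change had a Spearman correlation of -0.555 with merged exon length and 0.695 with the GC content of the transcripts, given as a description, since the genes share libraries. Over 12378 protein-coding genes the same correlations were -0.166 and 0.328. The other comparisons showed such correlations too. For mdx over wt they were 0.423 with length and -0.517 with GC content over the 52 genes (0.013 and -0.188 over protein-coding genes). For mdx/Ripk3mKO over wt they were -0.397 and 0.521 (-0.223 and 0.224 over protein-coding genes). The 24 genes with a higher mean in mdx/Ripk3mKO had a median exon length of 4440 bases and a median GC content of 50.9%. For the 28 with a lower mean these were 5928 bases and 43.2%. Mki67 (10061 bases), Cenpf (15433), Cenpe (8620) and Knl1 (8542) are long, while Aurka (2531) and Cdc20 (1868) are short. Single genes depart from the pattern, since Mki67 has a GC content of 46.7% and Ube2s a length of 5141 bases. After correction of each library for GC content and exon length, 44 of the 52 genes had a higher mean in mdx/Ripk3mKO than in mdx, with a median of 0.060 beside 0.038 over all genes. The corrected log2 fold change was -0.12 for Mki67, -0.080 for Cenpe, -0.050 for Cenpf, 0.0063 for Knl1, 0.20 for Aurka and 0.18 for Ube2s, and no gene of the 52 was called. In mdx against wt 45 of 52 were then lower, with a median of -0.045 beside -0.023 over all genes. In mdx/Ripk3mKO against wt 31 of 52 were higher, with a median of 0.0090 beside 0.016. Without the correction the medians over all genes were -0.0021 (mdx/Ripk3mKO against mdx), -0.0022 (mdx against wt) and 0.0012 (mdx/Ripk3mKO against wt). The correction thus shifted all genes, and the counts of the 52 after it include that shift. The share of all genes on each side is not given for these fits. The correction turned the sign of 20 of the 52 genes in mdx/Ripk3mKO against mdx, 9 in mdx against wt and 15 in mdx/Ripk3mKO against wt. In mdx against wt most genes were lower with and without it. The part that length and GC content had in them was not tested.

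**Figure D3:**
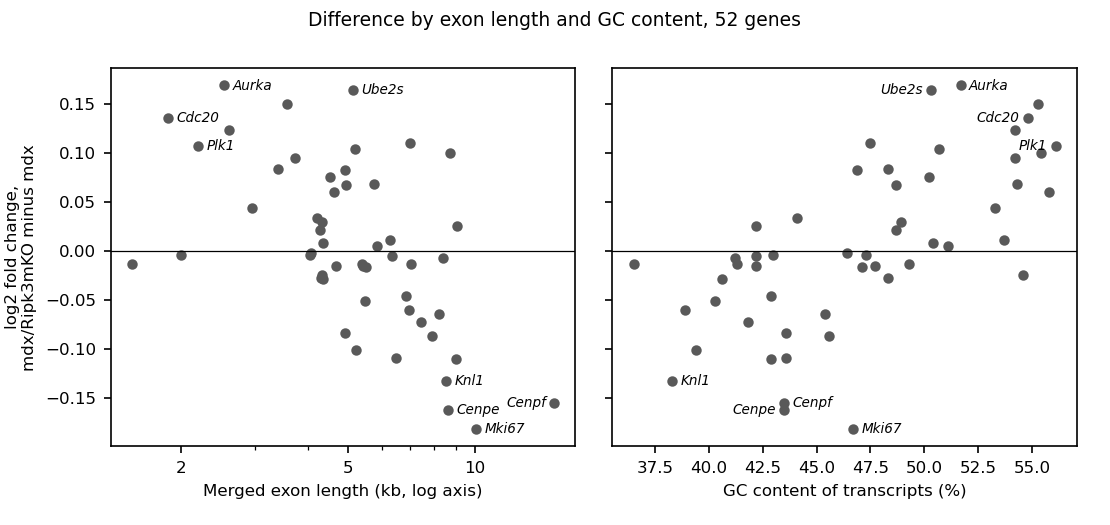
Log2 fold change of mdx/Ripk3mKO over mdx for each of the 52 genes (points) against merged exon length in kilobases (log axis, left) and GC content of the transcripts in percent (right). The values fall with length (Spearman -0.555) and rise with GC content (0.695), with scatter: Mki67, the lowest, has 46.7% GC, above the median of 43.2% of the genes below 0.

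The difference shared by most of these genes lay within the group labelled mdx/Ripk3mKO. Library 1 was lower than library 2 for 51 of the 52 genes, with a median difference of -0.13 on the log2 scale, and Pttg1 (264 and 238 scaled counts) was the exception. Over all 14077 tested genes 49.6% were lower in library 1, with a median of 0.00. The gap was widest for Kif20a (-0.23). Library 1 was the lowest of the 6 libraries for 28 of the 52 genes (19.4% of all genes) and the highest for 0 (18.1% of all genes). Library 2 was the highest for 23 (17.4% of all genes). Between the 2 mdx libraries 42 of 52 genes were lower in library 1, with a median of -0.066, and between the wt libraries 24 of 52, with a median of 0.0065. In the heat map of libraries, mdx/Ripk3mKO library 1 lies below the mean of the gene for 46 of the 52 genes, and library 2 above it for 45. Not every role was lowest there. The anaphase and APC/C genes summed to 376.4 CPM in mdx/Ripk3mKO library 1. They were lower in both mdx libraries (355.6 and 370.8 CPM) and in wt library 2 (367.4 CPM). For the kinase switch, the transcription factors and the Aurora and passenger genes, the lowest sum was in mdx library 1 (802.5, 144.9 and 440.0 CPM). Their sums in mdx/Ripk3mKO library 1 were 804.5, 147.2 and 443.7 CPM. Library 1 of mdx/Ripk3mKO is also the one with the high Xist and low Y-linked values, and whether that is related was not tested.

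**Figure D4:**
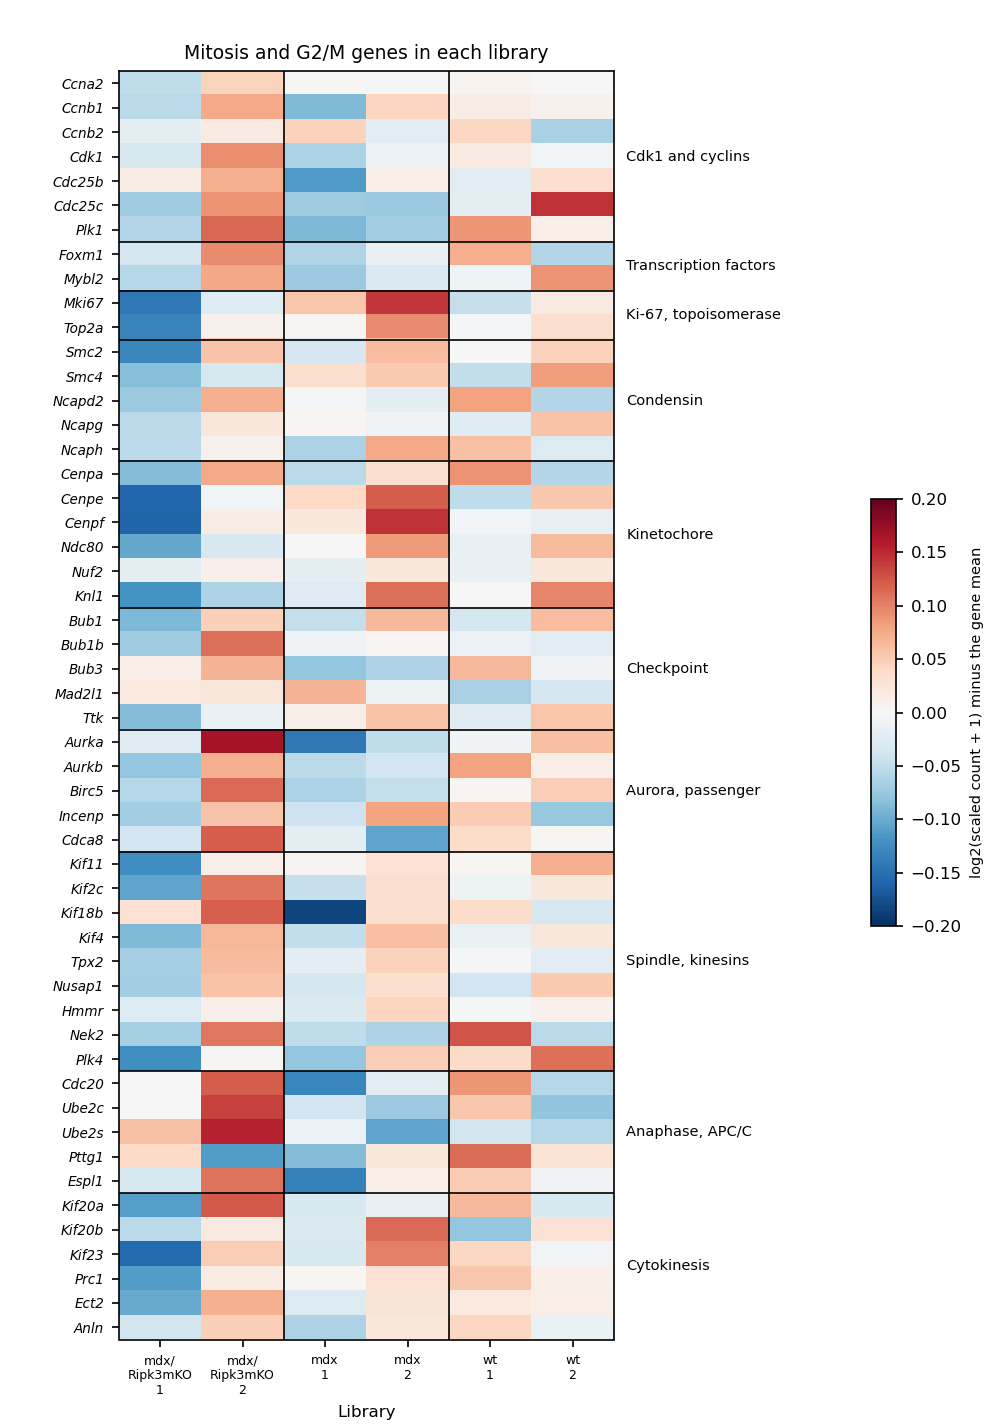
Value of each of the 52 genes (rows, by role) in each of the 6 libraries (columns) as log2(scaled count + 1) minus the mean of the gene over the libraries, from blue (lower) to red (higher). Library 1 of mdx/Ripk3mKO is blue for 46 genes and library 2 red for 45, with both true of 40.

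Whether most genes were higher or lower depended on which mdx/Ripk3mKO library was left out. Without mdx/Ripk3mKO library 1, 39 of the 52 genes were higher and 13 lower in mdx/Ripk3mKO than in mdx. Their median log2 fold change was 0.059, beside 0.0032 over all genes. Without library 2, 14 were higher and 38 lower, with a median of -0.055 beside -0.00075 over all genes. At an unadjusted p under 0.05 with limma there were then 9 of 52 without library 1 (11.4% of all genes) and 7 of 52 without library 2 (9.23%). Among the genes with the smallest p or the leading fold change of a role, the log2 fold change without library 1 moved by over 1.5 times for Aurka (0.26), Plk1 (0.19), Foxm1 (0.13), Cenpe (-0.087), Cenpf (-0.068), Top2a (-0.040) and Kif23 (0.015). For Mki67 it was -0.12. The mdx libraries moved the counts too. Without mdx library 2, 36 genes were higher and 16 lower (median 0.032, beside -0.0039 over all genes). Without mdx library 1 these were 23 and 29 (median -0.029, beside -0.0020). Against wt, 40 genes were higher without library 1 (median 0.042) and 47 lower without library 2 (median -0.079), and at an unadjusted p under 0.05 with limma there were 1 of 52 without library 1 (3.47% of all genes) and 10 of 52 without library 2 (6.55%). In mdx against wt, 28 genes were higher and 24 lower without mdx library 1 (median 0.0085), and 8 and 44 without mdx library 2 (median -0.048). Over all genes these 2 medians were 0 and 0.0011. For mdx/Ripk3mKO against wt they were 0.00013 without mdx/Ripk3mKO library 1 and 0.0021 without its library 2. No gene of the 52 was called in any of these fits.

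Genes outside the 52 were compared between the same libraries. Of 86 other genes of mitosis and G2/M, 74 were lower in mdx/Ripk3mKO library 1 than in library 2 (median -0.11 on the log2 scale), and of 43 genes of DNA replication 38 were (median -0.10). Transcripts of differentiating muscle cells went the other way. Of 8 such markers, 7 were higher in library 1, with a median of 0.31, and Myod1 (22696 and 23595 scaled counts) was the exception. The sum of the 8 was 15830.0 CPM in library 1 and 12760.0 in library 2. Most of it came from Myh3 (7157 and 5339 CPM) and Acta1 (4058 and 3168 CPM). In mdx libraries the sums were 16350.0 and 14580.0 CPM with all 8 markers higher in library 1 (median 0.19), and in wt libraries 14340.0 and 13740.0 with 5 of 8 higher (median 0.15). In mdx/Ripk3mKO and in mdx the library with less of the mitosis genes had more of the differentiation markers. Their part in the differences among the mitosis genes was not tested.

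**Figure D5:**
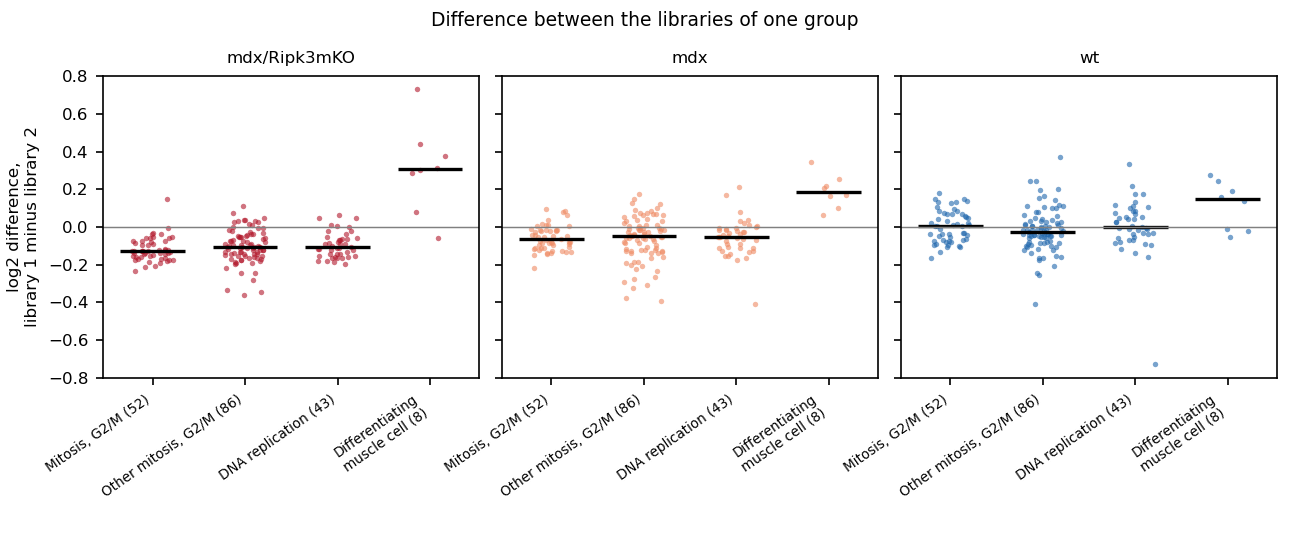
Log2 difference between library 1 and library 2 within each group for 4 lists of genes, with 1 point for each gene and the median as a bar. In mdx/Ripk3mKO the 52 genes have a median of -0.13 and the 8 markers of differentiating muscle 0.31, and in wt 0.0065 and 0.15.

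The remaining genes of the cycle gave no called difference either, apart from a CDK inhibitor. Of the 86 other mitosis and G2/M genes, 0 were called by limma in any comparison. An unadjusted p under 0.05 was found for 9 in mdx/Ripk3mKO against mdx (11.6% of all genes). It was found for 7 in mdx against wt (6.46% of all genes) and 3 in mdx/Ripk3mKO against wt (3.32%). The kinetochore protein Pmf1 had 1032 and 1149 scaled counts in mdx/Ripk3mKO libraries, 896 and 919 in mdx libraries, and 1041 and 1009 in wt libraries, at 0.26 ± 0.070 for mdx/Ripk3mKO over mdx (adjusted p = 0.159). Gtse1, a spindle and p53 regulator, had 1508 and 1626 in mdx/Ripk3mKO, 1244 and 1437 in mdx, and 1470 and 1558 in wt, at 0.23 ± 0.074 (adjusted p = 0.253). The centromere-loading factor Hjurp had 3364 and 3850 in mdx/Ripk3mKO and 4125 and 3990 in wt, at -0.17 ± 0.066 (adjusted p = 1), and Ska2 had 823 and 867 in mdx/Ripk3mKO and 954 and 1005 in wt, at -0.21 ± 0.068 (adjusted p = 1). The APC/C activator Fzr1 had 1330 and 1299 in mdx and 1591 and 1384 in wt, at -0.17 ± 0.072 (adjusted p = 0.714). Among 11 genes of the DREAM complex and its MuvB core, which repress the mitosis genes in resting cells and activate them in G2, 0 were called. E2f4, a subunit of that repressor, had 2903 and 2979 in mdx/Ripk3mKO, 2715 and 2496 in mdx, and 2946 and 2622 in wt, at 0.18 ± 0.065 for mdx/Ripk3mKO over mdx (adjusted p = 0.319) and 0.081 ± 0.065 over wt (adjusted p = 1). Its partner Tfdp1 had 3784 and 3974 in mdx/Ripk3mKO, 3575 and 3500 in mdx, and 4044 and 3667 in wt, at 0.13 ± 0.058 for mdx/Ripk3mKO over mdx (adjusted p = 0.407).

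Of 43 genes of DNA replication and S phase 0 were called. Of the 43, 32 had a higher mean in mdx/Ripk3mKO than in mdx (49.2% of all genes). The median was 0.041, beside -0.0021 over all genes. As given above, 38 of the 43 were lower in mdx/Ripk3mKO library 1 than in library 2 (median -0.10). Rrm2, which makes deoxynucleotides, had 21072 and 20899 scaled counts in mdx/Ripk3mKO libraries, 18316 and 19206 in mdx libraries, and 20014 and 20443 in wt libraries. It stood at 0.16 ± 0.047 for mdx/Ripk3mKO over mdx (limma, adjusted p = 0.197) and -0.11 ± 0.047 for mdx over wt (adjusted p = 0.743), with both mdx libraries below the other 4. Rpa1, which coats single-stranded DNA, had 4532 and 4533 in mdx/Ripk3mKO, 3988 and 4169 in mdx, and 4316 and 4428 in wt, at 0.15 ± 0.051 for mdx/Ripk3mKO over mdx (adjusted p = 0.267). The S-phase transcription factor E2f2 stood at -0.18 ± 0.074 for mdx over wt (adjusted p = 0.711), with 1344 and 1326 in mdx and 1632 and 1403 in wt. For mdx/Ripk3mKO over wt, the clamp loader subunit Rfc2 stood at 0.12 ± 0.072 (adjusted p = 1), the primase subunit Prim1 at -0.10 ± 0.073 (adjusted p = 1), the MuvB subunit Lin52 at -0.17 ± 0.15 (adjusted p = 1) and the CDK inhibitor Cdkn2b at 0.23 ± 0.14 (adjusted p = 1). Cdkn1c, the CDK inhibitor p57, was the gene called. It had 230 and 236 in mdx/Ripk3mKO, 486 and 488 in mdx, and 300 and 272 in wt, and was the only one of 7 CDK inhibitors that passed, lower in mdx/Ripk3mKO than in mdx (log2 fold change -1.06 ± 0.097, adjusted p = 0.000326) and with more in mdx than in wt (0.77 ± 0.097, adjusted p = 0.0182). The call against mdx held without any 1 library (adjusted p at most 0.0107) and was lost without variance trend and robust fitting (adjusted p = 0.295). The call of mdx against wt was lost in that fit as well (adjusted p = 0.429) and without any 1 of the mdx or wt libraries (adjusted p = 0.189 to 0.735), while its log2 fold change stayed between 0.70 and 0.84. Without variance trend and robust fitting both log2 fold changes were as reported.

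Promoters of late cell cycle genes are known for 2 short sequence elements. The cell cycle genes homology region (CHR), read as TTTGAA or TTCGAA, is bound by the MuvB core, and the CCAAT box by the factor NF-Y. RefSeq windows of build GRCm38.p6, from 250 bases before to 50 bases after the start, were at hand for 44 of the 52 genes (47 windows). On either strand a CHR match was present in 36 of the 47 windows, or 76.6%, beside 19.2% of 32851 windows of all genes and 13.7% of 12959 windows of tested genes. A CCAAT match was present in 33, or 70.2%, beside 37.4% and 37.5%. Both were present in 30, or 63.8%, beside 7.52% and 5.53%. TTTGAA was present in 33 windows and TTCGAA, which reads the same on both strands, in 5. The CHR match nearest to the start lay at a median position of 4.5, and in 32 of the 36 windows one lay between positions -100 and 50. A match is a description and not a bound site. Both elements were found for 27 genes. Anln, Kif20b, Kif2c, Knl1, Ndc80 and Ube2s had the CHR match alone, and Ccnb1, Cenpe and Nek2 the CCAAT match alone. The Kif2c window, chr4:117178723-117179022 on the minus strand, lies inside the gene, which is annotated from 117159639 to 117182639. The sequence ahead of that annotated start was not read for Kif2c. No match to these letters was in the windows of Birc5, Mad2l1, Mybl2, Ncaph, Nuf2, Nusap1, Plk4 and Pttg1.

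The windows of Mki67 and Aurka, the genes at either end of the mdx/Ripk3mKO against mdx comparison, are shown with those of Cdk1 and Ccnb2, to let their layouts be compared. All 4 lie on the minus strand and are written in the direction of transcription, with CHR and CCAAT matches in capitals (ATTGG is CCAAT on the other strand). They are chr7:135716330-135716629 for Mki67, chr2:172370521-172370820 for Aurka, chr10:69352863-69353162 for Cdk1 and chr9:70421505-70421804 for Ccnb2.
Mki67: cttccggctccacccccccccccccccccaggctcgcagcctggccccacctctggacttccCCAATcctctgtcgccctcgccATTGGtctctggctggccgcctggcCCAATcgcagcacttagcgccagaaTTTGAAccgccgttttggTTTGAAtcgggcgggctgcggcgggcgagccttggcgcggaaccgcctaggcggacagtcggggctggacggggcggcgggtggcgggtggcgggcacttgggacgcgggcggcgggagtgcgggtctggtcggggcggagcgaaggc
Aurka: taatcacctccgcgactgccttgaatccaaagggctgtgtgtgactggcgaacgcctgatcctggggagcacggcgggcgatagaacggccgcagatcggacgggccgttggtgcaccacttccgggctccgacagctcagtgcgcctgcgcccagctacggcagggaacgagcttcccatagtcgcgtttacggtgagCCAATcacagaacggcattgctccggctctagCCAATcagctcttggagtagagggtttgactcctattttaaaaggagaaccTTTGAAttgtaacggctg
Cdk1: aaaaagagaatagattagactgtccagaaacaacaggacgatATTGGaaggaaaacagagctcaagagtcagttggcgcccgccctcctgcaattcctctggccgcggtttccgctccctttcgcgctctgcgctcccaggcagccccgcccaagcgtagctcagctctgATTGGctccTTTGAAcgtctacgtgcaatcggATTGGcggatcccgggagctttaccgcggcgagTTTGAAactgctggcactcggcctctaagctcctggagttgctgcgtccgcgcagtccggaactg
Ccnb2: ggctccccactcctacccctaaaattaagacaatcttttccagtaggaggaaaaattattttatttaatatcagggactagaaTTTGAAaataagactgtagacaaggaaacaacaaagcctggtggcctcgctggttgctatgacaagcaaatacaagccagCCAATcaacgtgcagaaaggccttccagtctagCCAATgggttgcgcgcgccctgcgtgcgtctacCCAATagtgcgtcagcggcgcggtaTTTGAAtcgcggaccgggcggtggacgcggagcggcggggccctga
Mki67 has a pair of CHR matches at positions -116 and -98, downstream of 3 CCAAT matches. Aurka has CCAAT matches at -51 and -19 and a CHR match at 33. Cdk1 has CHR matches at -71 and -15 with CCAAT matches at -208, -80 and -48, and Ccnb2 has CCAAT matches at -87, -54 and -21 ahead of a CHR match at 5, with another at -167. Mki67 and Aurka thus hold both elements, while Mki67 had the lowest and Aurka the highest log2 fold change of the 52 genes between mdx/Ripk3mKO and mdx.

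Some values may include reads of other genes. Exons of 17 of the 52 genes overlap another annotated gene, in most cases on the opposite strand, and the labels and notes do not state a strand setting for the counting. Among the genes named above, Ube2s overlaps Rpl28, a ribosomal protein gene, Cdc20 overlaps Elovl1 and Ccna2 overlaps Exosc9. Ube2c overlaps Tnnc2, a troponin gene that has no value of its own in these data. A pseudogene, Ccnb2-ps, had 28 to 46 scaled counts, against 1429 to 1542 for Ccnb2.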

How the data were processed

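RNA was sequenced from 6 libraries made with a stranded total RNA kit, per the labels' protocols. The deposited values are a score, read counts that the authors scaled between libraries and rounded, as judged from equal size factors of 1.002 and skipped whole numbers. Per the submitters' processing notes the tools were featureCounts 1.6.3, DESeq2 1.18.1, STAR 2.6.1d and Trimmomatic 0.36, with build mm10. Divisors estimated from the skipped numbers were 1.204 and 1.206 for mdx/Ripk3mKO, 0.921 and 0.954 for mdx and 0.909 and 0.870 for wt, so the mdx/Ripk3mKO libraries were the deepest. No libraries were duplicates (mean chi-square per gene 2.78 or more). The lowest value, 2.78, was between mdx/Ripk3mKO library 2 and wt library 1, so libraries did not pair by label on this measure. Within labels it was 9.06 for mdx/Ripk3mKO, 4.26 for mdx and 3.72 for wt, and across labels it reached 11.2. Both mdx columns carry the same header, so mdx library numbers are names only.

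Because the values are no raw counts, limma 3.58.1 (R 4.3.3, statmod 1.5.0) was fitted to log2(scaled count + 1) of all 6 libraries, with group as the only term, variance trend and robust fitting. The test covered the 14077 genes that reached a scaled count of 10 in 2 or more libraries and left out 438, and p-values were adjusted over all of them by Benjamini-Hochberg at 0.05. Fold changes are on this scale, with moderated standard errors after ±. The script was tested on simulated counts, drawn independently for each gene. They held no shift shared by many genes of a library, so that test does not cover such shifts. Exon lengths, GC content and overlaps come from GENCODE on the same build. CPM are scaled counts relative to the library total. Per rule, the text names the 5 genes with the smallest p per direction, leading genes of each role, the largest fold change per role, the 5 highest and 5 lowest levels, and the top genes of other lists. Members and lists were chosen with earlier results of these data known. Alternatives covered scaling (TMM, quantile), pseudocount, filter, variance model, GC and length correction, libraries left out and groups fitted.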

Additional observations from a re-analysis of the deposited data

How the results depend on the processing

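None of the 52 genes was called under any alternative tried, 15 in mdx/Ripk3mKO against mdx, 15 in mdx against wt and 17 in mdx/Ripk3mKO against wt. The smallest adjusted p was 0.0937, for Aurka in mdx/Ripk3mKO against mdx without mdx/Ripk3mKO library 1 (range for that gene 0.0937 to 0.80), 0.581 for Plk1 in mdx against wt and 0.632 for Kif11 in mdx/Ripk3mKO against wt.

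Counts over all genes moved more. In mdx/Ripk3mKO against mdx they were 18 with a mean of at least 50, 1 without trend and robust fitting, 19 after GC content and exon length correction, 2 with only the compared groups fitted, and 1 to 278 with 1 library left out (278 without mdx/Ripk3mKO library 1, 28 without its library 2, 13 and 1 without mdx library 1 and 2, and 2 without either wt library). In mdx against wt they were 103 with only the compared groups fitted and 0 to 103 with 1 library left out, the higher value without either mdx/Ripk3mKO library and 0 without any one of the other 4. In mdx/Ripk3mKO against wt they were 0 to 20 with 1 library left out, 20 without mdx/Ripk3mKO library 2. The F-test gave 1 with a mean of at least 50, 1 without trend and robust fitting, and 1 to 203 with 1 library left out (203 and 112 without mdx/Ripk3mKO library 1 and 2, and 1 or 2 without any one of the other 4). Where 1 library is left, it is assumed to vary like the others.

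The median of the 52 genes in mdx/Ripk3mKO against mdx was 0.060 after GC and length correction, beside 0.038 over all genes. With 1 library left out it was -0.055 to 0.059, and in mdx/Ripk3mKO against wt -0.079 to 0.042. The log2 ratio of their summed level ranged from -0.11 to 0.036 in mdx/Ripk3mKO against mdx and from -0.11 to 0.031 in mdx/Ripk3mKO against wt. Among the genes whose fold changes the report gives, correction turned the sign of Knl1 (0.0063) and Smc4 (0.017) in mdx/Ripk3mKO against mdx, and of Smc4 in mdx against wt (-0.012) and in mdx/Ripk3mKO against wt (0.0058). Over all 52 genes it turned 20, 9 and 15 signs in mdx/Ripk3mKO against mdx, mdx against wt and mdx/Ripk3mKO against wt, and with 1 library left out the range crossed 0 for 29, 32 and 36 genes. Among the genes whose fold changes the report gives, these were Kif23 in mdx/Ripk3mKO against mdx (-0.19 to 0.015), Kif20b (-0.0042 to 0.14) and Smc4 (-0.042 to 0.091) in mdx against wt, and in mdx/Ripk3mKO against wt Aurka (-0.051 to 0.14), Cdc25c (-0.13 to 0.027), Mybl2 (-0.10 to 0.037) and Aurkb (-0.12 to 0.025). The cause was not tested.

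Replicate numbers could pair mdx/Ripk3mKO with wt alone, and same-numbered libraries did not deviate together (correlation -0.011). With the replicate block 0 genes were called and the median of the 52 genes was -0.012, and with the block and the GC and length correction, added after seeing the data, 3 genes were called. Depth was estimated and not given, and 2 libraries per group limit what can be called.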
